A study of Mus musculus with 12 samples.

Results

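The mitochondrially encoded genes were taken as every row of the deposited count tables whose symbol starts with mt-. They numbered 37 of 46078 genes. There were 13 mRNA genes, 2 rRNA genes and 22 tRNA genes, and all 37 lay on the mitochondrial chromosome of the GENCODE M21 annotation of GRCm38, 28 on the plus strand and 9 on the minus strand. The minus-strand genes were mt-Nd6 and 8 tRNA genes. RNA from E15.5 mouse brain was sequenced in 12 libraries, 3 each from Nsd2 KO males, WT males, Nsd2 KO females and WT females. Nsd2, the gene of an H3K36 methyltransferase, was knocked out by CRISPR/Cas9 genome editing in mice kept on the C57BL/6 background, and the labels name no transgene, Cre driver or treatment in any group. Litters are not given in the labels, so p-values measure the spread between these libraries.

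Mitochondria keep a small circular genome of their own. It is read from promoters on both strands into long precursors, and the tRNAs that lie between the larger genes are cut out to release the mRNAs and rRNAs. The mRNAs encode subunits of the respiratory chain and of the ATP synthase, which generate most ATP in neurons, and they are translated on mitochondrial ribosomes that contain the 12S rRNA (mt-Rnr1) and the 16S rRNA (mt-Rnr2). All proteins that copy the mitochondrial DNA, transcribe it and process its RNA come from nuclear genes. Pieces of mitochondrial DNA have also been copied into the nuclear genome over evolution.

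Library totals were 55703865 to 58904269 counts in males and 40398665 to 59304196 in females. Nsd2 (Whsc1 in the tables) was at 0.909 to 2.67 CPM (a gene's counts relative to the TMM-scaled library total) in the 6 KO libraries and at 351.0 to 407.0 CPM in the 6 WT libraries, as labelled. The 7 brain markers, Tubb3, Dcx and Stmn2 among them, summed to 3980 to 4540 CPM in KO and 4220 to 4650 CPM in WT libraries. The 11 Hox genes of caudal neural tissue summed to 0.394 to 158.0 CPM in KO and 0.395 to 158.0 CPM in WT libraries, so the level of caudal neural markers varied widely between libraries of both genotypes. The 9 markers of blood summed to 1840 to 2530 CPM in KO males and 2560 to 3220 CPM in WT males, and to 1750 to 3140 CPM in KO females and 1390 to 2050 CPM in WT females, and the 9 muscle markers to at most 10.8 CPM. KO female 1, KO female 2 and WT female 2 had the lowest totals, 40398665 to 44411094 counts, and stood apart from the other 9 libraries in mitochondrial rRNA. The version of the rRNA depletion kit (either of 2) and the sequencer (HiSeq X or NextSeq) of each library are not given in the sources used here.

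Counts for at least 9 of the 13 mRNA genes had to be read together with nuclear sequence. A search of GENCODE M21 transcripts listed 11 nuclear genes with a stretch of at least 60 bases and 95% identity to a member. The list is limited to genes of the count tables, and hits on a chromosome not named below were left out of it. Of these, 7 were unprocessed pseudogenes side by side on the minus strand of chromosome 1 of GRCm38, between 24611535 and 24616197, copying mt-Co1, mt-Co2, mt-Atp6, mt-Co3, mt-Nd3, mt-Nd4l and mt-Nd4. For 5 of the 7, mt-Nd4l (Gm10222, 294 bases), mt-Atp6 (Gm10925, 678 bases), mt-Co3 (Gm28437, 783 bases), mt-Co2 (Gm28661, 681 bases) and 876 bases of mt-Nd4 (Gm28439), the copy was identical to the gene over the aligned bases, so no read within them could be told from a read of the gene. The 2 copies that differed are shown with their genes, because within the copied stretch only reads over the capital letters can tell gene and copy apart. Capitals mark the differing bases, which are T3C in mt-Nd3 against Gm28438, and T1056A, C1057T, A1059G, A1060G, C1062A and A1066T in mt-Co1 against Gm29216, with the base of the mitochondrial gene first and positions counted from 1 at the 5′ end of the mitochondrial gene. The windows are chrM:9459-9481 (plus strand), chr1:24613097-24613119 (minus strand), chrM:6381-6403 (plus strand) and chr1:24616175-24616197 (minus strand), from the GENCODE M21 transcripts of GRCm38.
mt-Nd3: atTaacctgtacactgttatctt
Gm28438: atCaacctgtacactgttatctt
mt-Co1: ggTCtAAcCggaAttgttttatc
Gm29216: ggATtGGcAggaTttgttttatc

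The counts of a pair were divided according to how much of the gene the copy covers. The copy took 50.8% to 52.4% of the counts of the pair in females for mt-Nd4l, mt-Atp6, mt-Co3, mt-Nd3 and mt-Co2, and 49.7% to 50.4% in males. The sexes did not overlap in any of these 5 pairs. For mt-Nd4, whose copy covers 63.6% of the gene, the copy took 29.3% to 30.5% in females and 30.6% to 31.1% in males, and for mt-Co1, whose copy covers 31.3%, it took 11.6% to 14.8% in females and 12.1% to 12.5% in males. The copies on chromosome 2 and chromosome 13, which differ more from the genes (95.18% to 97.61% identity), took less. Gm13340, of mt-Co1, took 2.98% to 3.67% in females and 5.1% to 5.78% in males. Gm13341, of mt-Co2, took 1.62% to 2.43% in females and 4.12% to 4.85% in males. Gm4076, of mt-Nd5, took 0.102% to 0.15% in females and 0.257% to 0.401% in males. The sexes did not overlap in these copies. In Gm13339, of mt-Nd2, they did, with 0.115% to 0.566% in females and 0.196% to 0.261% in males. The counts of the 7 members with a chromosome 1 copy, and of the copies, are uncertain, since reads of the mitochondrial RNA and reads of the pseudogene cannot be told apart. Members that lie between the copied genes, such as mt-Atp8 and the tRNAs there, may be copied too without an annotated pseudogene. The search covered annotated transcripts only, so this was not tested. Whether the chromosome 1 copies are transcribed was not tested.

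**Figure D1:**
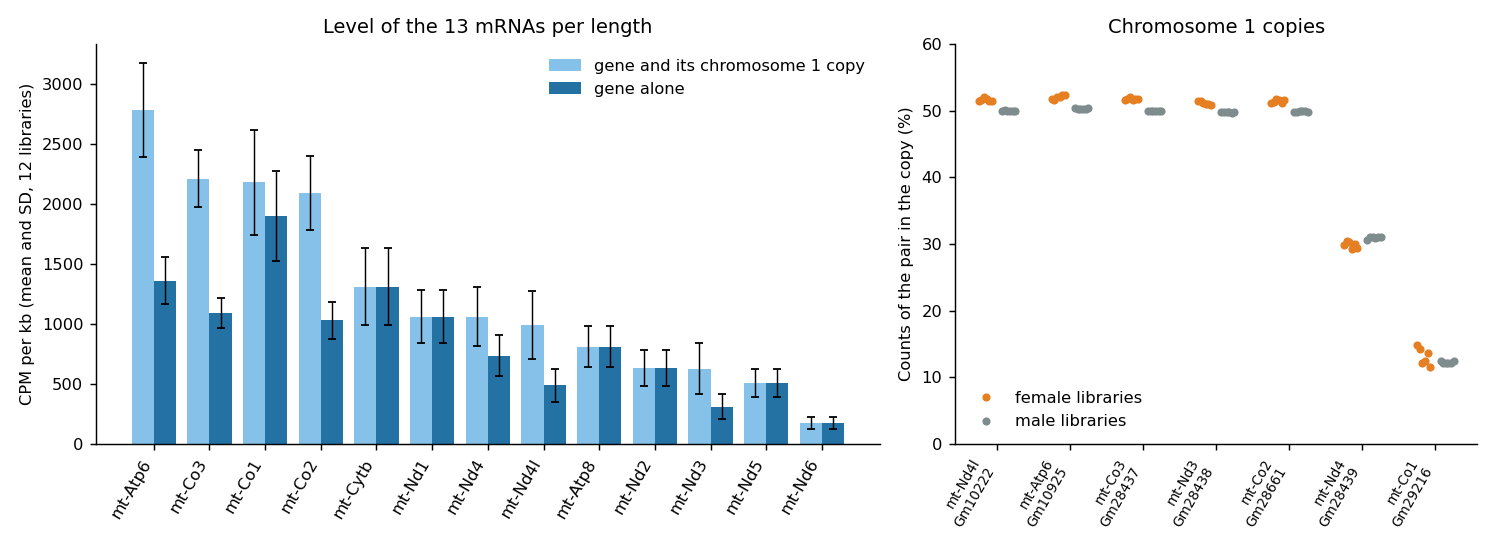
Left, mean CPM per kb of the 13 mRNAs over 12 libraries with the SD as error bar, with the counts of the chromosome 1 copy added (light bars) and without them (dark bars). Right, percent of the counts of each pair that lay in the copy, 1 point per library, female libraries left of male libraries, where 5 pairs sit near 50%, those of mt-Nd4 and mt-Co1 at 29.3% to 31.1% and 11.6% to 14.8%.

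A second source of shared reads lies within the mitochondrial genome. mt-Atp8 and mt-Atp6, both subunits of the ATP synthase, overlap on the same strand by 43 bases, shown because reads of that stretch belong to either gene. Capitals mark the shared bases, which open with the start codon of mt-Atp6 and close with the stop codon of mt-Atp8. The window is chrM:7907-7989 on the plus strand.
mt-Atp8 and mt-Atp6: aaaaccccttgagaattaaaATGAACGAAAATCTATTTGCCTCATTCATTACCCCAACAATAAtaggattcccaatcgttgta

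mt-Nd4l and mt-Nd4 share 7 bases in the same way. mt-Nd5 and mt-Nd6 share 14 bases on opposite strands, and although a directional library kit was used, the strand setting of the counting is not stated, so reads of a minus-strand gene cannot be told apart from those of the plus-strand precursor that runs across it. The levels of mt-Nd6 and of the 8 minus-strand tRNAs are uncertain for this reason.

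Per length, mt-Atp6 and the cytochrome c oxidase mRNAs stood above the other mRNAs once the copies were added. With the chromosome 1 copies added, mt-Atp6 had the highest level, 2780 ± 393 CPM per kb (SD, n = 12), followed by mt-Co3 (2210 ± 236), mt-Co1 (2180 ± 438) and mt-Co2 (2090 ± 312), the 3 core subunits of cytochrome c oxidase. mt-Cytb, the cytochrome b of complex III, was at 1310 ± 319 CPM per kb, and the 7 subunits of complex I lay at or below mt-Nd1, 1060 ± 219 CPM per kb. mt-Nd6, the gene on the minus strand, was lowest at 174.0 ± 49.7 CPM per kb. Between neighbours in this order, mt-Atp6 lay above mt-Co3 in 12 of 12 libraries, mt-Co2 above mt-Cytb in 12 of 12, mt-Cytb above mt-Nd1 in 12 of 12, mt-Atp8 above mt-Nd2 in 12 of 12 and mt-Nd5 above mt-Nd6 in 12 of 12, and mt-Nd4l above mt-Atp8 in 10 of 12. The other 6 neighbouring pairs differed by less than the SD of their log2 ratio over the libraries. For mt-Atp8 there was no annotated copy to add, so its place relative to mt-Nd4l, whose copy was added, is uncertain. Without the copies the order was another one, with mt-Co1 highest (1900 ± 375 CPM per kb), mt-Atp6 next (1360 ± 195) and mt-Nd4l at 487.0 ± 134 CPM per kb, below mt-Nd5 (507.0 ± 119). The 2 rRNAs stood above all mRNAs on average, mt-Rnr2 at 9170 ± 6800 and mt-Rnr1 at 7290 ± 8200 CPM per kb, after depletion of rRNA during library preparation. The tRNAs, 59 to 75 bases long and so no longer than the 75-base reads, were far below, from mt-Ts2 (1.20 ± 0.66 CPM per kb) to mt-Ts1 (310.0 ± 166).

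The levels of the mRNAs varied more between libraries than the proportions among them, in the median. The SD of log2 CPM over the 12 libraries was 0.17 to 0.46 among the 13 mRNAs, with a median of 0.31, and the SD of their log2 share of the summed mRNA counts was 0.07 to 0.42, with a median of 0.14. mt-Nd1 held 8.45% to 9.81% of the mRNA counts in every library, and mt-Co1, the largest contributor, 25.3% to 29.5%. For mt-Co3 the share varied slightly more than the level (SD 0.179 against 0.168). mt-Nd3, a small subunit of complex I, had the most variable share, 0.596% to 1.47%. Its level was 112.0, 68.7 and 71.5 CPM in KO males and 73.4, 69.8 and 142.0 CPM in WT males, so that KO male 1 and WT male 3 were high. In females it was 101.0, 109.0 and 118.0 CPM in KO and 120.0, 191.0 and 118.0 CPM in WT. Its nuclear copy kept the same proportion in those libraries, 49.8% of the pair in KO male 1 (6236 counts against 6290) and 49.8% in WT male 3 (7848 against 7898). Gene and copy differ at 1 of 345 aligned bases, so this proportion cannot show which of them the reads came from.

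The study compared KO with WT brains to find genes that depend on NSD2, and here the same comparison was made for the mitochondrial transcripts, first as shares of each library. The 13 mRNAs took 1.262%, 0.9931% and 0.9719% of the counts in KO males and 1.015%, 1.22% and 1.025% in WT males. In females they took 1.031%, 1.05% and 0.9929% in KO and 1.281%, 1.629% and 0.8% in WT. The genotypes overlapped in both sexes, and WT females were the most variable group. The difference of the mean log2 shares, KO minus WT, was -0.02 in males and -0.21 in females (two-sided exact permutation tests, p = 0.8 and p = 0.6, where 0.1 is the smallest p that 3 libraries against 3 allow), and -0.12 over both sexes (exact permutation within sex, p = 0.5, smallest possible 0.005). WT female 2 and WT female 3 moved the difference over both sexes most, to -0.00173 without WT female 2 and to -0.26 without WT female 3, and without the 3 female libraries of low total it was -0.03 in females and -0.02 over both sexes. For all members together, rRNAs included, the difference was 0.06 in males (exact permutation test, p = 1.0), 0.78 in females (p = 0.3) and 0.42 over both sexes (p = 0.215), and without those 3 libraries 0.18 in females and 0.12 over both sexes. Adding the chromosome 1 copies, which held another 0.2868% to 0.5178% of the counts, left the direction as it was in each sex. The tRNAs took 0.003726% to 0.004853% in KO males and 0.003949% to 0.00461% in WT males, and 0.005332% to 0.005966% in KO females and 0.004128% to 0.008265% in WT females, with a difference of -0.12 over both sexes (exact permutation test, p = 0.465). Of the 16 share tests made over classes and comparisons, none had an adjusted p under 0.32, with 1 at an unadjusted p under 0.05, that of the tRNAs, higher in females by 0.53 on the log2 scale (exact permutation within genotype, p = 0.02). Its p was 0.05 without the 3 female libraries of low total, 0.05 without WT male 1 and 0.055 without WT male 3. Wilson 95% intervals for counting error alone were ± 0.00227 to ± 0.0039 percentage points for the mRNA shares and ± 0.000156 to ± 0.00028 for the tRNA shares. In whole brain tissue, fewer mitochondria or fewer cells rich in them and less RNA per mitochondrion cannot be told apart.

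**Figure D2:**
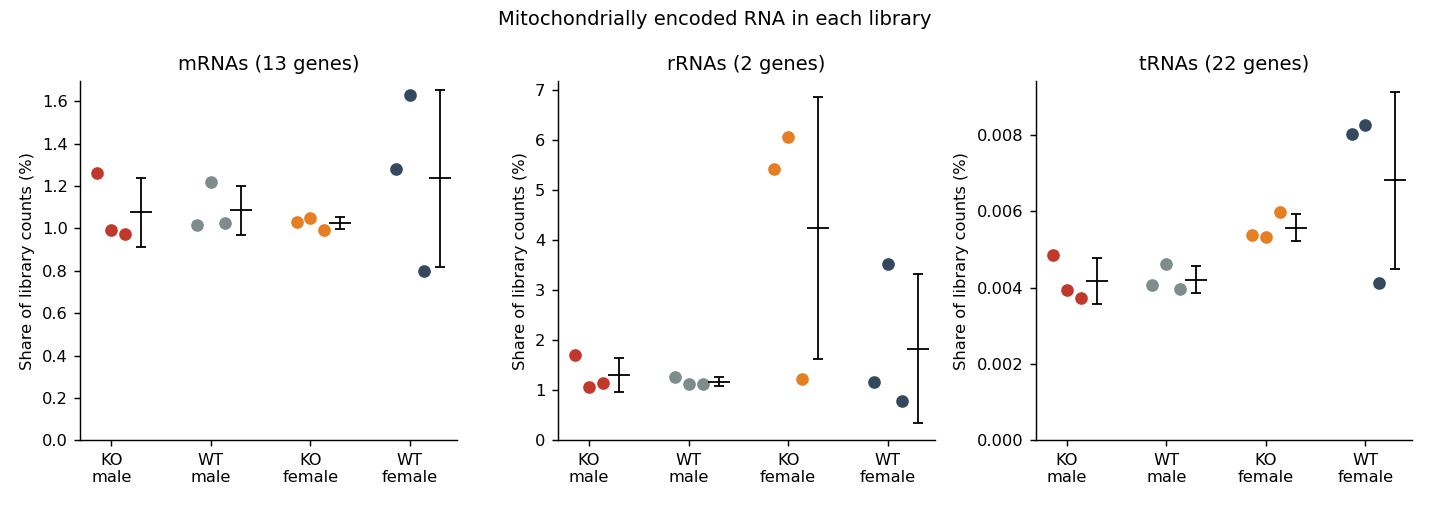
Share of library counts (percent) taken by the mitochondrially encoded mRNAs, rRNAs and tRNAs, 1 point per library, with the mean and SD of each group of 3 beside the points. KO and WT overlap in every class and sex, and the rRNAs of KO female 1, KO female 2 and WT female 2 (5.41%, 6.048% and 3.527%) lie above all other libraries.

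None of the members tested passed gene by gene. In males 32 of the 37 were tested and 0 were called (edgeR quasi-likelihood test, Benjamini-Hochberg adjusted p under 0.05), against 0.466% of the 18672 genes tested. In females 0 of 34 were called, against 0.0214% of 18710 genes (0.0107% lower and 0.0107% higher), and over both sexes 0 of 36, against 1.9% of 19768 genes. At an unadjusted p under 0.05 there were also 0 members in each of these comparisons, where 11.9%, 7.48% and 13.7% of all genes were, and DESeq2 called 0 in each. The difference of the KO effect between the sexes called 0 of 36 members, with 0 at an unadjusted p under 0.05, and 0.0% of all genes, where 4.45% of all genes had an unadjusted p under 0.05. The median over the members tested was 0.02 in the males, -0.28 in the females and -0.14 with the sexes fitted together, as log2 fold changes, beside -0.01, 0.01 and 0.00 over all genes. mt-Ts2, with 1 to 8 counts per library, was tested in none of these fits.

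Among the 13 mRNAs, 4 were below 0 and 9 above 0 in males, with log2 fold changes from -0.18 to 0.10, and all 13 were below 0 in females, from -0.39 to -0.04. These signs rest on the same 3 libraries a group, so the mRNAs are not replicates of the genotype. mt-Co1, the subunit of cytochrome c oxidase that reduces oxygen, had 3250, 2650 and 2610 CPM in KO males and 2580, 3050 and 2630 CPM in WT males, with a log2 fold change of 0.04 (95% interval -0.21 to 0.29). In females it had 2700, 2800 and 2910 CPM in KO and 3730, 4280 and 2120 CPM in WT, with a log2 fold change of -0.28 (95% interval -0.85 to 0.30). The KO females lay close together, between the WT libraries. The other complex IV subunits had log2 fold changes in males of 0.01 (mt-Co2) and 0.02 (mt-Co3), and in females of -0.15 and -0.04 in the same order. mt-Cytb, which passes electrons from ubiquinol within complex III, had 1660, 1270 and 1230 CPM in KO males and 1320, 1480 and 1250 CPM in WT males, and 1530, 1560 and 1340 CPM in KO females and 1870, 2450 and 1110 CPM in WT females. Its genotypes overlapped in both sexes as those of mt-Co1 did, with log2 fold changes of 0.04 (95% interval -0.25 to 0.33) in males and -0.30 (-0.92 to 0.33) in females. The 2 subunits of the ATP synthase were at -0.01 (mt-Atp8) and 0.02 (mt-Atp6) in males and at -0.32 and -0.23 in females. mt-Atp6, the subunit that forms part of the proton path, averaged 810.8 ± 15.1 CPM in KO females and 945.5 ± 219 CPM in WT females (SD, n = 3 each).

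The 7 subunits of complex I, which takes electrons from NADH, lay in the same range. mt-Nd1, where the quinone site is formed in part, was at -0.05 in males and -0.27 in females, and mt-Nd2 was at -0.06 and -0.37. mt-Nd4, mt-Nd4l and mt-Nd5 were at 0.05, 0.05 and 0.02 in males and at -0.26, -0.30 and -0.32 in females. Of the complex I subunits, mt-Nd3 had the log2 fold change farthest from 0 in both sexes, -0.18 (SE 0.367) in males and -0.39 (SE 0.196, edgeR adjusted p = 0.716) in females, the lowest adjusted p of any member in females. mt-Nd6, transcribed from the other strand than the rest, was at 0.10 (SE 0.185) in males and -0.04 (SE 0.371) in females. The intervals of the 13 mRNAs reached from -1.12 to 0.76 in males and from -1.03 to 0.85 in females, with both bounds in males those of mt-Nd3, so differences within them were not detectable with 3 libraries a group. Over both sexes they reached from -0.74 to 0.52. The blood markers, lower in KO than in WT in males and overlapping in females, moved with genotype in males, and their part in these values was not tested.

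**Figure D3:**
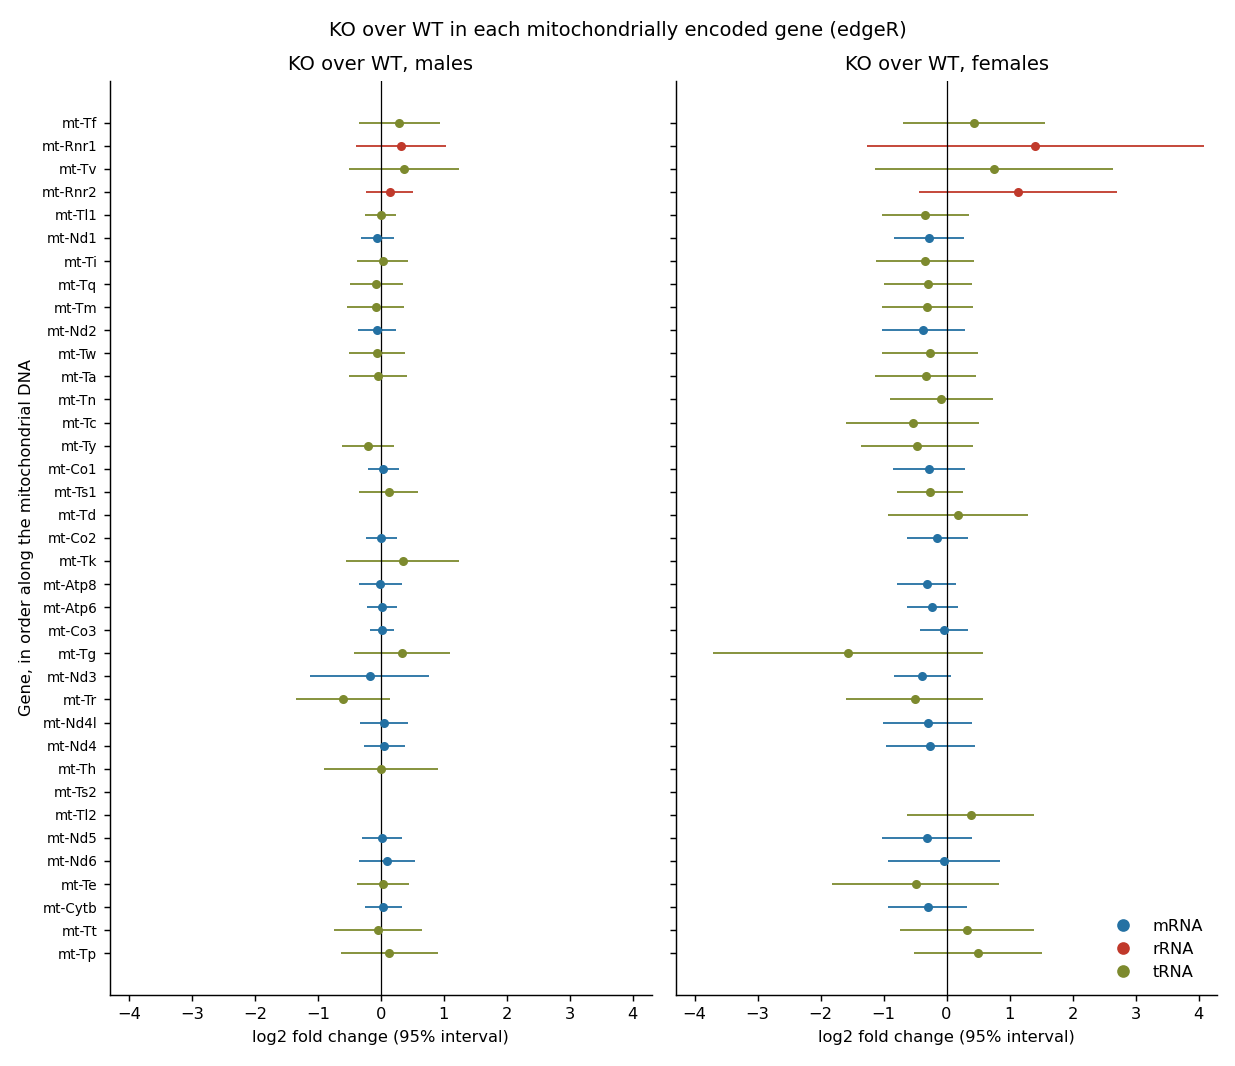
log2 fold change of KO over WT with its 95% interval for each member tested, in the order of the genes along the mitochondrial DNA, in males (left) and females (right); genes with no point had too few counts for the test. All intervals include 0, and those of mt-Rnr1 and mt-Rnr2 in females, -1.27 to 4.08 and -0.44 to 2.71, are wide.

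The rRNAs differed most between single female libraries of both genotypes. mt-Rnr1 had 21400, 23400 and 2940 CPM in KO females and 2790, 13200 and 1910 CPM in WT females. In males it had 4560, 2640 and 2750 CPM in KO and 3380, 2620 and 1930 CPM in WT. mt-Rnr2 had 32900, 38500 and 9380 CPM in KO females and 8770, 22000 and 5900 CPM in WT females, against 12600, 8230 and 8870 CPM in KO males and 9410, 8190 and 9280 CPM in WT males. The 3 female libraries with totals under 50000000 counts, KO female 1, KO female 2 and WT female 2, were high in both rRNAs, and 2 of the 3 were KO libraries. In females the log2 fold change was 1.41 (SE 1.07, edgeR adjusted p = 0.798) for mt-Rnr1 and 1.13 (SE 0.661, adjusted p = 0.747) for mt-Rnr2, and the summed rRNA share differed by 1.22 on the log2 scale (exact permutation test, p = 0.2, adjusted over the 16 tests 0.573). Without these 3 libraries the difference in females was 0.37, from 1 KO library against the other 2 WT libraries. In males it was 0.13 (exact permutation test, p = 0.8).

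The same 3 libraries differed from the other 9 in more than the sum. Counts of mt-Rnr1 for each count of mt-Rnr2 were 0.65, 0.607 and 0.599 in KO female 1, KO female 2 and WT female 2, against 0.208 to 0.362 in the others, with the lowest in WT male 3. Gm26917, among the most counted rows of the tables and grouped with the small RNAs left out of the alternative totals, took 1.62% to 4.39% of their counts and 5.44% to 6.67% of the counts of the others. Among the members, mt-Ts2 included though it was not tested, 5 of 37 were above the other 9 libraries without overlap, where 1.99% of the 19768 genes tested were and 4.11% did not overlap in either direction. They were mt-Tf (1.51 to 1.72 CPM against 0.335 to 1.07), mt-Rnr1 (13200 to 23400 against 1910 to 4560), mt-Tv (0.814 to 0.917 against 0.0842 to 0.343), mt-Rnr2 (22000 to 38500 against 5900 to 12600) and mt-Tl2 (0.282 to 0.317 against 0.135 to 0.267). The 3 libraries were singled out with their rRNA levels known. mt-Rnr1 and mt-Rnr2, with mt-Tf and mt-Tv beside them, are therefore no independent support for a difference. In raw counts mt-Tl2 overlapped, with 14, 12 and 12 in the 3 libraries and 8 to 15 in the other 9, so it stood apart only after scaling to library totals. The first 4 of the 5 are the first 4 genes of the mitochondrial DNA, from position 1 to 2675, in which the tRNA for phenylalanine and the tRNA for valine flank the 12S rRNA. The next gene, mt-Tl1, which starts at position 2676, overlapped with 7.38 to 12.7 CPM against 5.37 to 11.7, and so did all 13 mRNAs. mt-Tg, a tRNA between mt-Co3 and mt-Nd3, had 1, 1 and 23 counts in KO females and 32, 27 and 15 in WT females, so it was low in KO female 1 and KO female 2 and not in WT female 2, and its log2 fold change in females was -1.56 (SE 0.922, edgeR adjusted p = 0.744). The low totals and the low Gm26917 share moved with these differences, and their part in them was not tested.

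**Figure D4:**
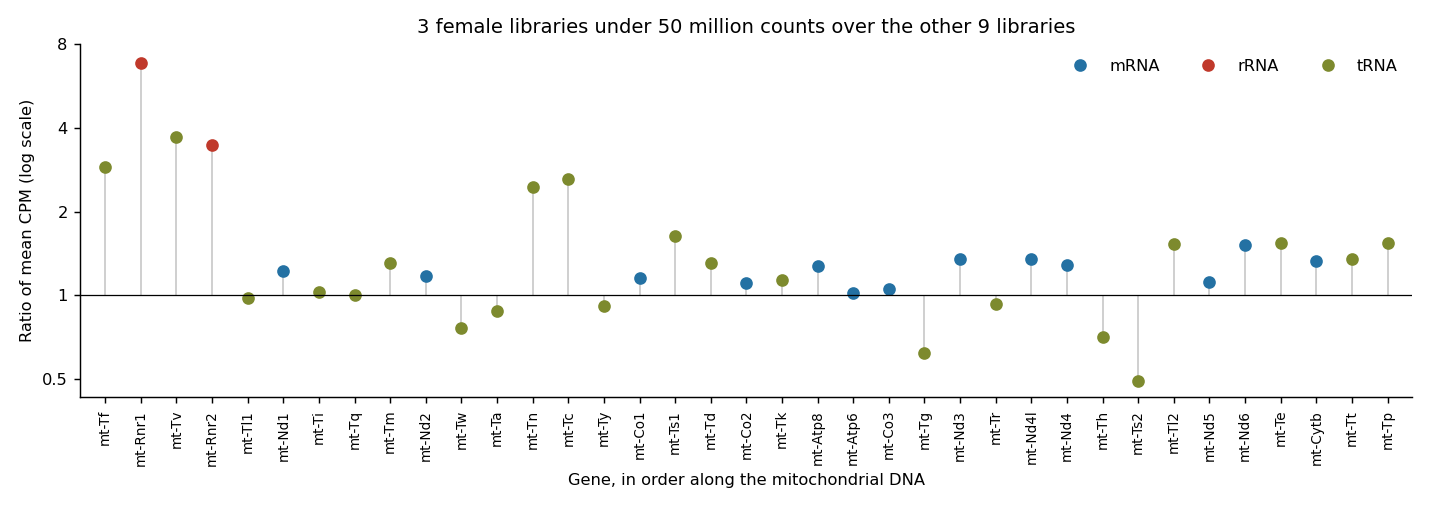
Mean CPM in the 3 female libraries with totals under 50000000 counts over the mean of the other 9 libraries (log scale) for each member, in the order of the genes along the mitochondrial DNA. mt-Tf, mt-Rnr1, mt-Tv and mt-Rnr2, at the start of the molecule, have ratios of 2.88, 6.82, 3.71 and 3.47, and the 13 mRNAs 1.02 to 1.51.

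The tRNAs carried few counts, 2195 to 4368 in a whole library over the 22 genes. mt-Ts1, mt-Tl1 (128.0 ± 27.9 CPM per kb) and mt-Te (50 ± 21.3) were the most abundant per length, and mt-Td (1.95 ± 0.857) and mt-Ts2 the least. In males 17 were tested and in females 19, with log2 fold changes of -0.60 to 0.37 and -1.56 to 0.75. mt-Tr, the tRNA for arginine, had the lowest adjusted p of the members in males and over both sexes. It had 19, 12 and 17 counts in KO males and 29, 23 and 21 in WT males, which did not overlap in CPM, and 15, 9 and 23 counts in KO females and 35, 21 and 15 in WT females, which did. Its log2 fold change was -0.60 (SE 0.324, edgeR adjusted p = 0.501) in males and -0.55 (SE 0.277, adjusted p = 0.412) over both sexes. Beside mt-Tr, mt-Ty was the only tested member whose male groups did not overlap, with 1.82, 1.84 and 1.47 CPM in KO and 1.87, 2.11 and 1.92 CPM in WT, so 2 of 32 members did not overlap in males, where 17.3% of the genes tested did not. In females 0 of 34 members were apart, where 13.8% of the genes tested were.

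Between the sexes 4 of 36 members were called, all tRNAs and all higher in females, where 23.7% of 19768 genes were called and 12.9% were called higher. Males and females are in separate tables, so sex and any difference in processing cannot be told apart. The 4 tRNAs are shown with the anticodon, which reads the codon on the mRNA, in capitals. They are mt-Tn for asparagine (chrM:5089-5159, minus strand), mt-Tc for cysteine (chrM:5192-5257, minus strand), mt-Ts1 for serine (chrM:6870-6938, minus strand) and mt-Tf for phenylalanine (chrM:1-68, plus strand), each in its own 5′ to 3′ direction from GENCODE M21.
mt-Tn: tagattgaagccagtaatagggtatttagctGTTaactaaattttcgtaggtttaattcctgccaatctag
mt-Tc: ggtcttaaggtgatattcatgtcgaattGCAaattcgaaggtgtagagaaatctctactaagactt
mt-Ts1: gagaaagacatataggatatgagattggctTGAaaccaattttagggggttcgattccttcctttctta
mt-Tf: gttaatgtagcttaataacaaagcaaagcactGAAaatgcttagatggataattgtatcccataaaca

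mt-Tn and mt-Tc had at most 5 counts in any male library and passed the filter on low counts only through the female libraries, where they are high, so their calls are no independent support for a difference. mt-Tn had 30, 29, 48, 59, 33 and 30 counts in the 3 KO and 3 WT female libraries, and 0, 0, 3, 2, 4 and 3 in the 3 KO and 3 WT male libraries. A count of 0 allows up to 3 counts. mt-Tc had 18, 28, 40, 62, 45 and 24 counts in the female and 1, 3, 1, 5, 2 and 1 in the male libraries, in the same order. The fitted log2 fold changes were 4.42 (SE 0.46, edgeR adjusted p = 1.77e-05) for mt-Tn and 4.22 (SE 0.43, adjusted p = 1.49e-05) for mt-Tc, and at such low male counts they depend on the prior count of the fit. Their neighbours mt-Ta and mt-Ty, on the same strand and in the same cluster of tRNA genes, had log2 fold changes of -0.04 (SE 0.198) and -0.02 (SE 0.214).

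mt-Ts1, the most counted tRNA, had 29.5, 24 and 31.6 CPM in KO females and 41.8, 36.9 and 23.0 CPM in WT females, against 16.2, 10.5 and 9.77 CPM in KO males and 11.6, 12.3 and 9.51 CPM in WT males. All 6 female libraries lay above all 6 male libraries, and its log2 fold change was 1.42 (SE 0.172, edgeR adjusted p = 0.000102). Its gene overlaps the last 3 bases of mt-Co1 on the opposite strand, and mt-Co1 was at 0.15 (SE 0.146, adjusted p = 0.505). Without overlap between the sexes there were 3 of 36 members, mt-Tn, mt-Tc and mt-Ts1, where 10.8% of the genes tested did not overlap. mt-Tf had 1.72, 1.51 and 0.876 CPM in KO females and 1.07, 1.56 and 0.421 CPM in WT females, against 0.335 to 0.517 CPM in males, with a log2 fold change of 1.44 (SE 0.289, edgeR adjusted p = 0.00323). It is also high in the 3 libraries described above, and without them its call was lost (log2 fold change 0.91, adjusted p = 0.0775, with 6.87e-05 the lowest over its 21 alternatives). Without them 3 of 36 members were called, where 2522 of the 20642 genes tested were. The 13 mRNAs were at -0.15 to 0.50 between the sexes with 0 called, mt-Nd3 at 0.50 (SE 0.208, adjusted p = 0.11). The rRNAs were not called, at 1.74 (SE 0.62, adjusted p = 0.0696) for mt-Rnr1 and 0.96 (SE 0.404, adjusted p = 0.113) for mt-Rnr2. Without WT female 3, the library with the lowest mitochondrial share, 9 of 36 members were called, where 5619 of the 20223 genes tested were.

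**Figure D5:**
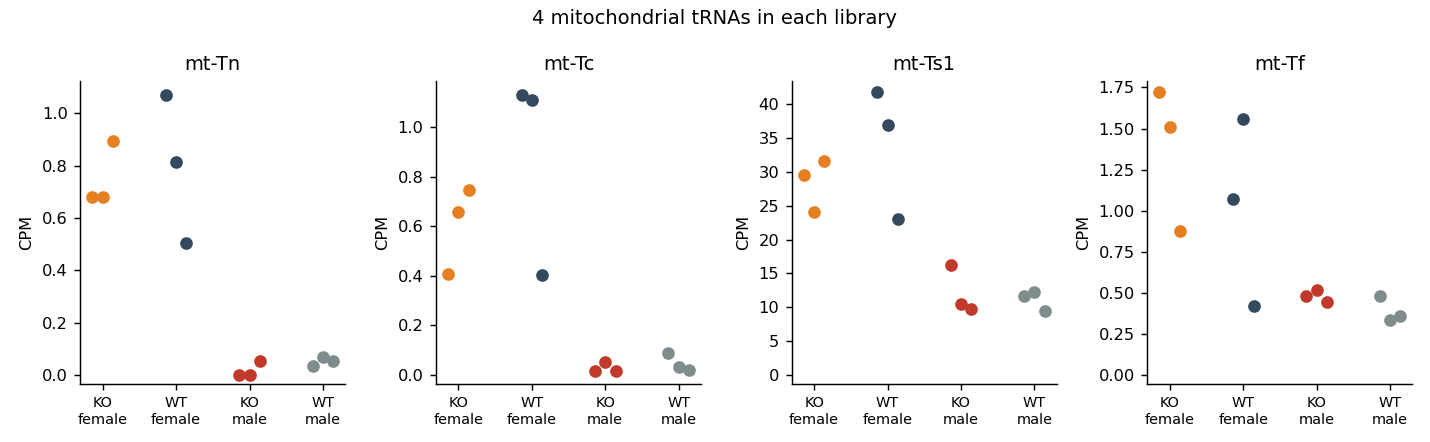
CPM of the 4 tRNAs called between the sexes, 1 point per library, female groups left of male groups. mt-Tn and mt-Tc are at most 0.0669 and 0.0891 CPM in males and at least 0.505 and 0.404 CPM in females, and the sexes overlap only in mt-Tf.

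Nuclear genes that serve the mitochondrial genome showed no call between KO and WT, with 1 exception. None of 18 genes of mitochondrial transcription and DNA replication, 25 of mitochondrial RNA processing, 20 mitochondrial tRNA synthetases, 77 mitochondrial ribosomal proteins, 81 nuclear-encoded subunits of the respiratory chain and 24 import and membrane proteins passed in either sex or in the fit of all 12 libraries (edgeR), and neither did the 7 chromosome 1 copies. As given above, 0.466% of all genes tested were called in males, 0.0214% in females and 1.9% with the sexes together, so counts of 0 in lists of this size are near that background. Tfam, the factor that packages mitochondrial DNA and starts its transcription, had 34.52 ± 0.762 CPM in KO males and 34.49 ± 1.68 CPM in WT males (SD, n = 3 each), and its log2 fold change over both sexes was 0.09 (SE 0.0644, adjusted p = 0.573). Polg, the mitochondrial DNA polymerase, was at 0.14 (SE 0.0523, adjusted p = 0.258). In the same fit the 2 most abundant genes of the other lists were at 0.07 (Dhx30) and 0.10 (Grsf1), which bind mitochondrial RNA, at 0.09 for the isoleucyl-tRNA synthetase Iars2, at 0.08 (Mrps5) and 0.04 (Mrps17) for the ribosome, at -0.02 (Atp5b) and 0.03 (Atp5a1) for the ATP synthase, and at -0.04 (Slc25a4) and -0.07 (Vdac1) for carriers of the membranes. Of the respiratory chain subunits 77 of 81 were below 0 in males (median log2 fold change -0.13) and 70 of 81 above 0 in females (median 0.12), beside medians of -0.01 and 0.01 over all genes. The mitochondrial ribosomal proteins had 59 of 77 below 0 in males and 68 of 77 above 0 in females. Of 10 nuclear-retained and small structured RNAs, Rn7s1 and Rn7s2 among them, 0 were called, with 8 below 0 in males and 10 above 0 in females. Every sign in a list rests on the same 3 libraries a group, so its genes are not replicates of the genotype. The direction of the lists, and its difference between the sexes, was not tested.

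The exception was Ppargc1a, which encodes PGC-1α, a transcriptional coactivator that drives mitochondrial biogenesis, among 12 regulators listed. It had 16.9, 20.8 and 15.7 CPM in KO males and 25.2, 30 and 23.0 CPM in WT males. In females it had 20.2, 20.5 and 17.4 CPM in KO and 28.3, 26.1 and 26.2 CPM in WT. All KO libraries lay below all WT libraries of the same sex, where 17.3% of the genes tested in males and 13.8% in females did not overlap in either direction. Ppargc1a fell by 0.51 on the log2 scale over both sexes (SE 0.0851, edgeR adjusted p = 0.00655, where 1.52% of the genes tested were called lower) and kept its call in 23 of 24 alternatives, all but the one that scales libraries to their mitochondrial mRNA counts (adjusted p = 0.976). Its log2 fold change was -0.58 to -0.44 over the 24. The blood markers were lower in KO males too, and overlapped in females, and their part was not tested. It was not called within males (log2 fold change -0.55, adjusted p = 0.179, called in 2 of 17 alternatives, DESeq2 and the replicate block, with adjusted p of 0.0103 to 0.916) or within females (-0.47, adjusted p = 0.312, called in 1 of 19, DESeq2, with 0.0149 to 1.0), and the difference between the sexes was 0.08 (SE 0.175, adjusted p = 0.96).

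Lars2, the mitochondrial leucyl-tRNA synthetase and one of the most abundant genes of its list, varied widely among females. It had 369.0, 1380 and 24.8 CPM in KO females and 71.0, 251.0 and 24.2 CPM in WT females, against 140.0 to 256.0 CPM in KO males and 186.0 to 302.0 CPM in WT males. The 3 female libraries with high mitochondrial rRNA were the 3 highest females, and the other females had 24.8 CPM in KO and 71.0 and 24.2 CPM in WT. Its log2 fold change in females was 2.35 (SE 1.68, edgeR adjusted p = 0.797). Lars2 was not among the 11 nuclear genes with a near-identical stretch, in a search that compared annotated transcripts with mitochondrial genes only. Whether reads of other RNAs were counted in Lars2 was not tested.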

How the data were processed

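The deposited values are read counts per gene, with no normalization. Per the study's methods, the authors trimmed reads of 150 bases to 75 bases, removed adapters with cutadapt 2.6, aligned to GRCm38 (mm10) with HISAT2 2.1.0, and wrote counts with StringTie 2.0.6 and its script on Ensembl release 81 transcripts. This script derives counts from coverage. The libraries were made with a directional kit. The treatment of multimapped reads, the strand option of the counting and any filter are not given in the sources used here.

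Within each sex, KO libraries were set against WT libraries with edgeR 4.0.16 in R 4.3.3 (TMM, filterByExpr with at least 10 counts, robust quasi-likelihood F test, Benjamini-Hochberg over all genes tested, threshold 0.05), and over 12 libraries with sex as a term. CPM used TMM library sizes. Library shares were compared by exact permutation of log2 shares. Copies were found with blastn 2.17.0 (at least 95% identity over 60 bases) among genes of the count tables, leaving out hits on a chromosome not named above. Of 46078 gene IDs 45143 matched GENCODE M21, all 37 members included. All members are reported, with up to 4 called genes of each nuclear list or its 2 most abundant, and Nsd2. The members and lists were chosen with earlier results of these data known. A further brain marker is not reported here. Totals of 40398665 to 59304196 counts limit precision, and intervals and limits for a count of 0 cover counting error only. Alternatives were RLE size factors, other filters, DESeq2 1.42.0, other totals and denominators, the copies added to the shares, no robust estimation, the Hox level as a covariate, the spread over all 12 libraries, a replicate block and each library left out. Adding the copies before the fits, and leaving out the 3 female libraries under 50000000 counts or fitting them as a covariate, are alternatives chosen after seeing the data. Both count tests were tested on simulated data.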

Additional observations from a re-analysis of the deposited data

How the results depend on the processing

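The count of members called between KO and WT was 0 in all alternatives, 17 in males, 19 in females, 24 over both sexes and 21 for the difference between the sexes. DESeq2 called 0 members in each, with 1 at an unadjusted p under 0.05 in females and 0 in the others. The lowest adjusted p of any member was 0.224 (mt-Rnr1, males, with the replicate block), 0.0586 (mt-Rnr2, females, libraries scaled to mitochondrial mRNA), 0.248 (mt-Tr, both sexes) and 0.113 (mt-Tg, difference between the sexes). Deviations of same-numbered KO and WT libraries from their group means correlated at -0.05 to 0.20. The same number was the best match for KO male 2 and KO female 3. This check cannot decide whether the numbers pair the libraries, since any other difference between libraries enters it too. The replicate block called 0 members in each comparison. It left the share differences of all members at 0.06 (males), 0.78 (females) and 0.42 (both sexes). Those of females and both sexes were 0.18 and 0.12 without the 3 female libraries under 50000000 counts, and 0.39 to 1.31 and 0.23 to 0.69 with 1 library left out. The block could not be fitted for female over male. Between the sexes 2 of 25 members were called with more than 1 CPM in 3 libraries, where 3705 of the 15636 genes tested were. With 1 library left out 4 to 9 of 36 members were called. Over all genes the calls were then 3550 (of 20232, without KO male 2) to 5619 (of 20223, without WT female 3).

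Several share differences near 0 changed sign when 1 library was left out. In males they ranged from -0.11 to 0.15 for all members, -0.14 to 0.0663 for mRNAs, -0.0756 to 0.257 for rRNAs and -0.134 to 0.0565 for tRNAs. In females the mRNAs ranged from -0.496 to 0.0164, and for female over male from -0.0786 to 0.178. Other differences kept their sign. Over both sexes the mRNAs ranged from -0.258 to -0.00173. For female over male all members ranged from 0.40 to 0.89, past the threshold without WT female 3 (0.82), and the tRNAs from 0.44 to 0.69. Without the 3 female libraries under 50000000 counts, KO over WT turned to 0.0522 for tRNAs in females and 0.0162 over both sexes, and female over male to -0.14 for all members, -0.10 for mRNAs and -0.17 for rRNAs. The tRNA share, at 0.53 with all libraries, was then 0.49 and no longer under the threshold (exact permutation test, p = 0.05), nor was it without WT male 1 (0.51, p = 0.05) or WT male 3 (0.50, p = 0.055). The cause was not tested. Over all genes, KO against WT gave 87 calls in males, 4 in females and 375 with the sexes together, against 484, 180 and 806 by DESeq2, 338, 44 and 74 with libraries scaled to mitochondrial mRNA, 27, 1 and 516 with the Hox level as a covariate, and 290, 1 and 272 with the replicate block. Few counts limit the tRNAs, and the design of 3 libraries a group limits every test of a share within a sex.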

Other observations

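Nuclear genes for mitochondrial proteins were also compared between the sexes. Of 81 nuclear-encoded respiratory chain subunits 28 were lower and 3 higher in females (edgeR, adjusted p under 0.05), with a median log2 fold change of -0.18. Of 77 mitochondrial ribosomal proteins 23 were lower and 1 higher (median -0.17), and of 24 import and membrane proteins 10 were lower and 0 higher (median -0.12). Over all 19768 genes tested, 10.9% were lower and 12.9% higher. None of the 13 mitochondrially encoded mRNAs was called, with a median of 0.15. Of 18 genes of mitochondrial transcription and DNA replication 0 were lower and 4 higher, of 25 of RNA processing 5 and 3, of 20 tRNA synthetases 0 and 2, of 12 regulators of biogenesis 0 and 1, of 7 chromosome 1 copies 0 and 0, and of 10 nuclear-retained and small structured RNAs 0 and 5. Sex and processing cannot be told apart in these tables, and the difference between these lists was not tested.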
